A study of Aspergillus luchuensis with 9 samples.

Results

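The chromosome 3 block comprised 36 neighbouring genes out of 12941 genes in the deposited table of Aspergillus luchuensis mut. kawachii, a white koji fungus used in shochu brewing. Its members were all genes numbered from AKAW2_31300A to AKAW2_31335A, at positions 3882681 to 3994231 of chromosome 3 (111.6 kb). The coordinates are those of the deposited table and equal those of the RefSeq assembly AkawachiiIFO4308_assembly01 for 36 of 36 members. The block was chosen by measured values, because AKAW2_31315S, AKAW2_31317A and AKAW2_31319S had been called higher in ΔlaeA than in the control. Values of that contrast are given here as a description, and calls on it therefore support nothing further. RNA was sequenced from 3 strains of mut. kawachii with 3 libraries each, a control, a hepA deletion (ΔhepA) and a laeA deletion (ΔlaeA). The labels name no other allele, agent, culture condition or time for any group, and do not say whether replicates were separate cultures. The p-values therefore reflect library spread alone, which may be technical. The reference lists no gene under the symbols hepA and laeA, and the deletions were not checked by name.

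In filamentous fungi, genes for the synthesis of a secondary metabolite often lie side by side in a cluster and are transcribed together under certain conditions only. LaeA is a nuclear methyltransferase-like protein that acts with velvet proteins and is known in Aspergillus as a regulator of such clusters. HepA is the Aspergillus counterpart of heterochromatin protein 1, which binds methylated histones in silent chromatin. The reference gives a symbol to 4 block genes. FSL5 is named after a gene of the fusarielin polyketide cluster of Fusarium, GEA2 after a yeast exchange factor for Arf GTPases at the Golgi, SYF1 after a yeast pre-mRNA splicing factor, and VMA8 after a subunit of the yeast vacuolar proton pump. The other members are named by locus tag and have no role in the files used here.

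Libraries differed beyond their strain. Relative sequencing depth, read from the steps among low FPKM values (fragments scaled by gene length and by the mapped total of the library), was 0.66 in ΔlaeA replicate 2 and 0.519 in ΔlaeA replicate 3 against 0.841 to 1.035 in the other 7 libraries (control replicate 3 set to 1). On the first principal component of all tested genes (39.1% of the variance), ΔhepA replicate 2 and ΔlaeA replicates 2 and 3 had scores of 28.8, 53.6 and 72.8, and the other 6 libraries had scores of -46.4 to -9.8. Mitochondrial genes made up 2.85%, 3.04% and 7% of summed FPKM in these 3 libraries and 1.09% to 1.67% in the other 6. Differences of the stretch from FSL5 to AKAW2_31319S are therefore also given without these 3 libraries.

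The block had 15 genes on the plus strand and 21 on the minus strand, 709 to 7599 bases long, with a median gap of 702 bases between neighbours. The longest gap, 6657 bases, lay between AKAW2_31312S and AKAW2_31313A. Beyond AKAW2_31313A followed a stretch of 6 genes, FSL5 (AKAW2_31314S) to AKAW2_31319S, at 3923091 to 3934079 (11 kb), with gaps of 87 to 2082 bases. FSL5, AKAW2_31315S and AKAW2_31316S lay in tandem on the plus strand, and AKAW2_31316S ran towards AKAW2_31317A with 87 bases between them. The sources used here do not give the strand setting of the counting, so reads of such converging transcripts may not be fully separated. Numbers and positions differed in order at 2 places, where AKAW2_31303S lay before AKAW2_31302A and AKAW2_31310S before AKAW2_31309A.

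The 6 genes of that stretch were low in the control and higher in the ΔlaeA libraries, unevenly so. AKAW2_31317A stood at 4.37, 5.77 and 4.83 FPKM in control replicates 1 to 3, at 6.49, 97.8 and 65.6 FPKM in the ΔhepA replicates and at 48.0, 203 and 473 FPKM in the ΔlaeA replicates. It was the most abundant of the 6 in both deletion strains by mean, and neither deletion group overlapped the controls. AKAW2_31319S stood at 10.6, 12.2 and 10.6 FPKM in the controls, at 15.8, 74.9 and 65.6 FPKM in ΔhepA and at 53.1, 115 and 275 FPKM in ΔlaeA. AKAW2_31315S stood at 1.75, 2.35 and 0.99 FPKM in the controls, at 5.42, 16.3 and 13.3 FPKM in ΔhepA and at 13.0, 34.4 and 90.6 FPKM in ΔlaeA. For both genes each deletion library lay above the 3 controls, ΔhepA replicate 1 by the smallest margin.

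FSL5 stood at 2.26, 2.25 and 1.18 FPKM in the controls, at 1.83, 13.7 and 9.68 FPKM in ΔhepA and at 9.97, 23.7 and 67.9 FPKM in ΔlaeA. Its ΔhepA replicate 1 lay within the range of the controls, and its ΔlaeA libraries lay above them. AKAW2_31316S stood at 0.22, 1.24 and 0.63 FPKM in the controls, at 1.41, 7.42 and 3.62 FPKM in ΔhepA and at 3.64, 14.9 and 57.1 FPKM in ΔlaeA. AKAW2_31318A, between the called genes AKAW2_31317A and AKAW2_31319S, stayed near the lower end of the table, at 0.39, 0.65 and 0.74 FPKM in the controls, 0.53, 1.43 and 1.5 FPKM in ΔhepA and 1.13, 2.23 and 3.19 FPKM in ΔlaeA. The order of the libraries was the same for AKAW2_31318A as for its neighbours at the top, with ΔlaeA replicate 3 first and ΔlaeA replicate 2 second. In bulk RNA, more expressing hyphae and more RNA per expressing cell cannot be told apart.

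**Figure D1:**
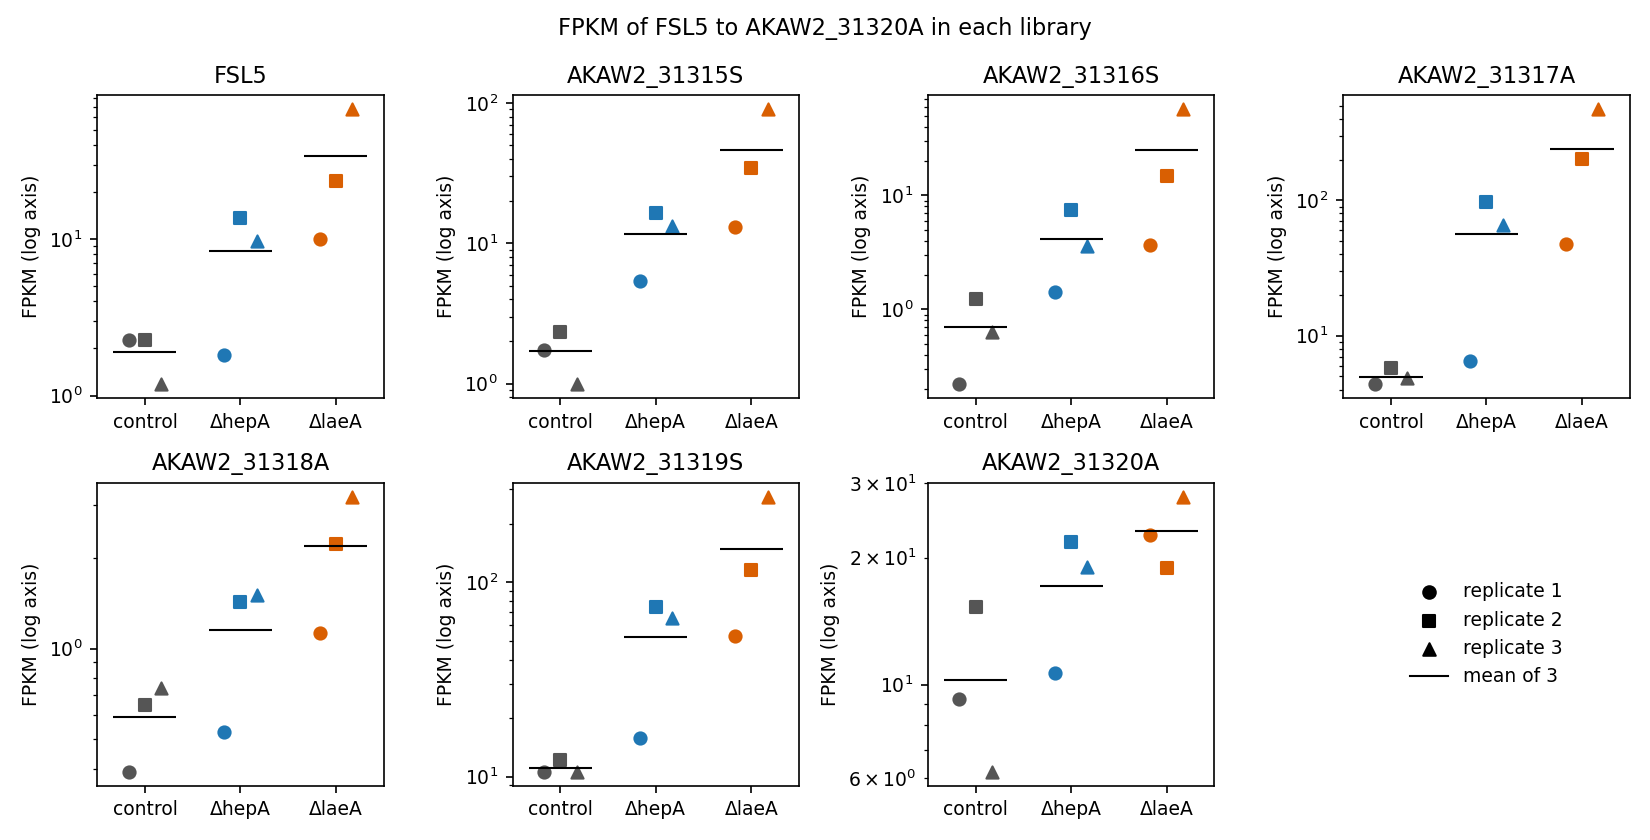
FPKM on a log axis of each of the 7 genes from FSL5 to AKAW2_31320A, one panel per gene, for the 3 libraries of the control, ΔhepA and ΔlaeA; symbols mark the replicate number and lines the mean of 3. In AKAW2_31317A the controls sit between 4.37 and 5.77 FPKM, and the ΔlaeA libraries spread from 48.0 to 473 FPKM.

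Against the control, 3 block genes rose in ΔlaeA, the 3 for which the block was picked. AKAW2_31317A rose from a mean of 4.99 ± 0.714 to 241 ± 215 FPKM (SD, n = 3), a difference of 4.81 ± 0.943 (SE) in log2(FPKM + 1) with a limma adjusted p of 0.0385. AKAW2_31315S rose from 1.70 ± 0.682 to 46.0 ± 40.1 FPKM (3.76 ± 0.621, limma adjusted p = 0.0183), and AKAW2_31319S from 11.1 ± 0.944 to 148 ± 115 FPKM (3.31 ± 0.636, limma adjusted p = 0.0367). In each of these genes the SD of the ΔlaeA libraries was nearly as large as their mean. FSL5 (3.22, limma adjusted p = 0.0587) and AKAW2_31316S (3.30, limma adjusted p = 0.0668) had differences of like size and were not called. AKAW2_31318A had a difference of 0.95 (limma adjusted p = 0.182).

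Of the 36 members, 32 passed the filter of at least 1 FPKM in at least 3 libraries, 2 of them with no control library at 1 FPKM (AKAW2_31318A and AKAW2_31326A). The 3 higher calls stand beside 0.17% of 10009 tested genes called higher in the same fit, and 0 members were called lower against 0.919%. At an unadjusted p under 0.05, 9 members were higher and 1 was lower, against 7.53% and 14.1% of all genes. The 3 ΔlaeA libraries lay above the 3 controls in 9 tested members, against 8.48% of all tested genes, and below them in 0, against 14.5%. These 9 were AKAW2_31312S, the 7 consecutive genes from FSL5 to AKAW2_31320A, and AKAW2_31326A. Among them, AKAW2_31318A and AKAW2_31326A passed the filter through deletion libraries only. The median difference was 0.19 over the 32 members and -0.21 over all tested genes.

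The 3 calls depended on single libraries, AKAW2_31315S least. With all libraries of the fit but 1, AKAW2_31315S was called in 3 of 6 fits, and AKAW2_31317A and AKAW2_31319S in 1 of 6 each, the fit without ΔlaeA replicate 1. AKAW2_31315S lost the call without control replicate 1 (limma adjusted p = 0.0801), control replicate 3 (0.0680) and ΔlaeA replicate 2 (0.0940). In these 6 fits the difference of AKAW2_31317A ran from 4.07 to 5.70, that of AKAW2_31315S from 3.08 to 4.43 and that of AKAW2_31319S from 2.71 to 3.89. The fit without ΔlaeA replicate 1 called 1601 genes in all and 10 block genes, among them FSL5 and AKAW2_31316S, and so singles out no member. Leaving out the 3 libraries that lay apart leaves ΔlaeA replicate 1 alone, so only the sizes of differences are given for that fit. The difference of AKAW2_31317A was then 3.04, of AKAW2_31315S 2.41, of AKAW2_31319S 2.16, of FSL5 1.95, of AKAW2_31316S 1.5 and of AKAW2_31318A 0.43.

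**Figure D2:**
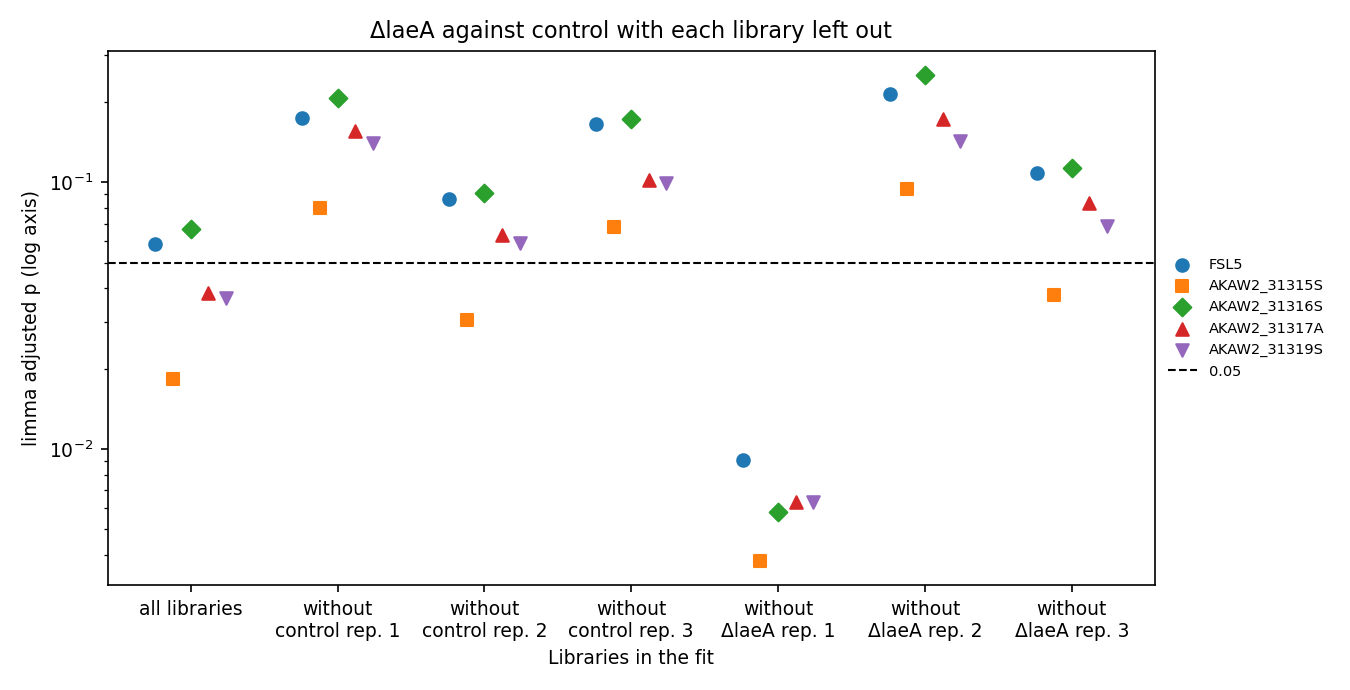
Limma adjusted p on a log axis for 5 genes in ΔlaeA against control, with all 9 libraries and with each control or ΔlaeA library left out; the dashed line marks 0.05. With AKAW2_31315S at 0.0183 and AKAW2_31317A at 0.0385 in the full fit, all 5 genes fall under 0.01 only without ΔlaeA replicate 1.

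In ΔhepA the same stretch was above the control mean, by less, and no member passed the test. Means were 56.6 ± 46.3 FPKM for AKAW2_31317A, 52.1 ± 31.8 for AKAW2_31319S, 11.7 ± 5.64 for AKAW2_31315S, 8.40 ± 6.03 for FSL5 and 4.15 ± 3.04 for AKAW2_31316S (SD, n = 3). The difference from the control was 2.62 for AKAW2_31317A, with a 95% interval of 0.54 to 4.70 and a limma adjusted p of 0.347. It was 2.15 for AKAW2_31315S (0.78 to 3.52, limma adjusted p = 0.219) and 1.86 for AKAW2_31319S (0.46 to 3.26, limma adjusted p = 0.312). The intervals of these 3 genes, which are not adjusted for the number of genes, lay above 0. Those of FSL5 (1.42, -0.14 to 2.98) and AKAW2_31316S (1.47, -0.26 to 3.19) included 0. The sizes depended on single ΔhepA libraries: AKAW2_31317A was at 3.77 without replicate 1 and 1.91 without replicate 2, FSL5 at 2.14 and 0.95. Of the 3 libraries that lay apart, only ΔhepA replicate 2 enters this contrast. Leaving out the 3 thus gives the same differences as leaving out that library alone, and is no separate check. The difference was then 1.91 for AKAW2_31317A, 1.86 for AKAW2_31315S, 1.47 for AKAW2_31319S, 1.02 for AKAW2_31316S, 0.95 for FSL5 and 0.30 for AKAW2_31318A.

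By limma 0 of 32 members were called in ΔhepA, against 0.05% of all tested genes called higher and 0.27% called lower. At an unadjusted p under 0.05, 3 members were higher (AKAW2_31315S, AKAW2_31317A and AKAW2_31319S) and 0 lower, against 2.58% and 7.85% of all genes. The 3 ΔhepA libraries lay above the controls in 4 members, AKAW2_31315S, AKAW2_31316S, AKAW2_31317A and AKAW2_31319S, against 5.48% of all genes, and below them in 0, against 14.2%. Both deletion strains are compared with the same 3 controls, so these counts do not add independent evidence to those of ΔlaeA.

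**Figure D3:**
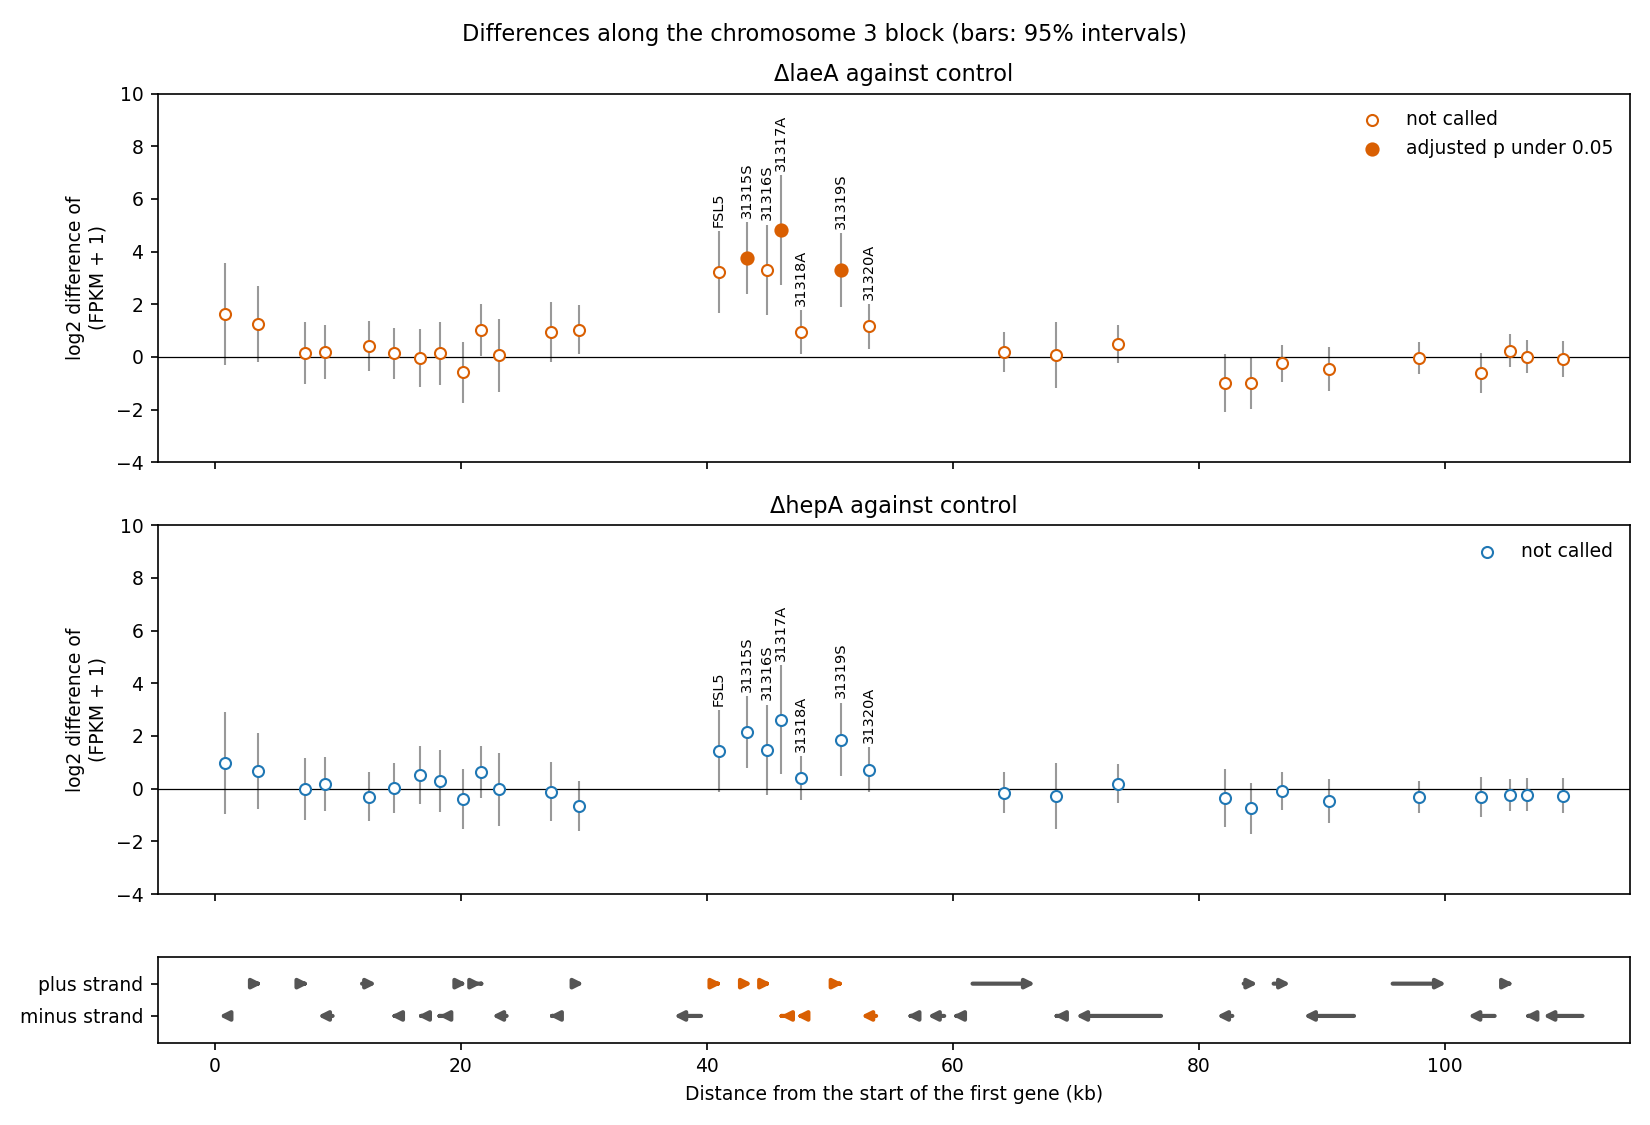
Difference in log2(FPKM + 1) from the control (points, with 95% intervals) of the 32 tested genes along the block in ΔlaeA and ΔhepA, over a map of the 36 genes by strand; the x axis is the distance in kb from the start of the first gene, filled points have an adjusted p under 0.05, and orange arrows mark FSL5 to AKAW2_31320A. In ΔlaeA the 3 filled points and their neighbours reach differences of 3.22 to 4.81 near the middle of the map, with AKAW2_31318A at 0.95.

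Set against each other, ΔlaeA and ΔhepA differed in 0 block genes by limma, beside 0.02% of all tested genes called higher in ΔlaeA and 0.03% called lower. The 7 genes from FSL5 to AKAW2_31320A were each higher by mean in ΔlaeA, and in each the 2 groups overlapped. The difference between the strains was 2.19 for AKAW2_31317A (95% interval 0.12 to 4.27, limma adjusted p = 0.510), 1.61 for AKAW2_31315S (0.24 to 2.98, 0.467) and 1.8 for FSL5 (0.24 to 3.36, 0.474). It was 1.84 for AKAW2_31316S (0.11 to 3.56, limma adjusted p = 0.506) and 1.45 for AKAW2_31319S (0.05 to 2.85, 0.512). At an unadjusted p under 0.05 there were 6 higher members, these 5 and AKAW2_31312S, against 5.43% of all genes, and 0 lower members against 4.07%. The ΔlaeA libraries lay above the ΔhepA libraries in 3 tested members, AKAW2_31312S, AKAW2_31324S and VMA8, against 7.58% of all genes, and below them in 0, against 4.79%. The high ΔlaeA values by which the block was chosen also enter this contrast. Its counts and differences are therefore a description and support nothing further. With each library left out in turn, the difference between the strains ran from 1.05 to 3.08 for AKAW2_31317A, 0.93 to 2.28 for AKAW2_31315S, 1.08 to 2.43 for FSL5, 0.92 to 2.74 for AKAW2_31316S and 0.76 to 2.03 for AKAW2_31319S. The highest of these came without ΔlaeA replicate 1 in all 5 genes. The lowest came without ΔhepA replicate 1 for AKAW2_31317A, FSL5 and AKAW2_31319S and without ΔlaeA replicate 3 for AKAW2_31315S and AKAW2_31316S. In the fit that omits the 3 apart libraries, and so has ΔlaeA replicate 1 only for that strain, it was 1.13 for AKAW2_31317A, 0.55 for AKAW2_31315S, 1.0 for FSL5, 0.48 for AKAW2_31316S and 0.69 for AKAW2_31319S. A larger response of the stretch in ΔlaeA than in ΔhepA was thus not detectable after adjustment over all genes.

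The libraries of a strain were far apart in this stretch. Summed over the 6 genes from FSL5 to AKAW2_31319S, FPKM was 18.9 to 24.5 in the controls. The sum was 31.5, 212 and 159 in ΔhepA replicates 1 to 3 and 129, 393 and 967 in ΔlaeA replicates 1 to 3. The highest library exceeded the lowest 1.29-fold in the control, 6.72-fold in ΔhepA and 7.51-fold in ΔlaeA. The sums of ΔhepA replicates 2 and 3 were thus above that of ΔlaeA replicate 1. Relative to the control mean of each gene, the median over the 6 genes was 1.36 in ΔhepA replicate 1, 8.42 in replicate 2 and 5.55 in replicate 3, and 5.24, 16.4 and 44.6 in ΔlaeA replicates 1 to 3.

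Of the 6 genes, 5 were uneven in ΔlaeA when taken singly. The SD of log2(FPKM + 1) among the ΔlaeA libraries was 1.82 for AKAW2_31316S, 1.66 for AKAW2_31317A, 1.35 for AKAW2_31315S, 1.33 for FSL5 and 1.18 for AKAW2_31319S, against a median of 0.477 over all tested genes. That of AKAW2_31318A was 0.492, close to this median, but the scale understates the spread of so low a gene. In FPKM its ΔlaeA replicate 3 was 2.82-fold replicate 1, against 5.19-fold for AKAW2_31319S. Of all tested genes, 1.38% had an SD at least that of AKAW2_31316S and 6.88% one at least that of AKAW2_31319S. In ΔhepA AKAW2_31317A had an SD of 2.0, against a median of 0.370 over all tested genes. In the control the same gene had an SD of 0.169, under the median of 0.335.

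ΔlaeA replicates 2 and 3, the highest libraries in this stretch, were also the shallowest and had the highest mitochondrial shares. The part of depth, mitochondrial share or whatever sets these libraries apart in the uneven values was not tested. The 3 libraries that lay apart were above the other 6 in 8 tested members, against 3.93% of all tested genes. These were AKAW2_31300A, AKAW2_31301S, FSL5, AKAW2_31315S, AKAW2_31316S, AKAW2_31317A, AKAW2_31319S and AKAW2_31326A. This count is a description, since ΔlaeA replicates 2 and 3 belong to the contrast the block was chosen by. AKAW2_31326A reached 1 FPKM in the 3 libraries that lay apart only. It passed the filter through them, which fixed its place in the count. ΔlaeA replicate 1 and ΔhepA replicate 3 were also above the 3 controls in each of the 6 genes from FSL5 to AKAW2_31319S. All deletion libraries but ΔhepA replicate 1 lay above that library and the controls in 8 tested members, against 1.82% of all tested genes. These 8 were the 6 genes, AKAW2_31320A and AKAW2_31326A. This too is a description, since ΔlaeA replicate 1 also belongs to the contrast the block was chosen by.

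The 6 genes followed each other across libraries. Pearson's r of log2(FPKM + 1) over the 9 libraries lay between 0.937 and 0.996 for the 15 pairs of these genes, a description of values that share library and scaling. The highest r was that of AKAW2_31317A with AKAW2_31319S. After the mean of each strain was subtracted, the 15 values of r lay between 0.876 and 0.988, with the 3 strains pooled. In ΔhepA and in ΔlaeA, replicate 1 was the lowest library for each of the 6 genes. The controls had no common order: replicate 3 was lowest for FSL5 (1.18 FPKM) and highest for AKAW2_31318A (0.74 FPKM). The next gene, AKAW2_31320A, had r of 0.768 to 0.866 with the 6. Members farther off had values as high, AKAW2_31326A with 0.836 to 0.920 and AKAW2_31300A with 0.800 to 0.882.

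By rank within a library, which does not depend on scaling between libraries, AKAW2_31317A lay above 37.1%, 41.9% and 39.7% of all genes in the controls. It lay above 44.4%, 86.7% and 79.5% in ΔhepA and 74.4%, 91.5% and 96.1% in ΔlaeA. FSL5 lay above 27.5% to 32.8% of genes in the controls and 49.4%, 65.9% and 82.1% in ΔlaeA. The genes thus passed from the lower part of the table in the control to its upper part in ΔlaeA replicates 2 and 3. AKAW2_31318A lay above 20.0% to 24.1% in the controls and 38.9% at most.

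Upstream of the long gap, 2 pairs of neighbours were high in some libraries only, and none was called. AKAW2_31300A stood at 4.19 to 8.25 FPKM in the controls, at 4.90, 33.8 and 9.88 FPKM in ΔhepA and at 3.40, 33.5 and 55.7 FPKM in ΔlaeA. AKAW2_31301S, which lies divergently from it, stood at 11.7 to 34.8 FPKM in the controls, at 20.0, 71.1 and 23.8 FPKM in ΔhepA and at 18.0, 80.3 and 84.2 FPKM in ΔlaeA. In this pair the high libraries were the 3 that lay apart, and ΔlaeA replicate 1 was within or below the range of the controls.

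The divergent pair AKAW2_31311A and AKAW2_31312S was high in ΔlaeA replicates 2 and 3 and not in ΔhepA. AKAW2_31311A stood at 4.31 to 6.02 FPKM in the controls, 4.19 to 4.82 FPKM in ΔhepA and 3.61, 13.1 and 22.4 FPKM in ΔlaeA. AKAW2_31312S stood at 2.91 to 4.96 FPKM in the controls, 1.40 to 2.97 FPKM in ΔhepA and 5.45, 8.59 and 17.2 FPKM in ΔlaeA. Its direct difference between ΔlaeA and ΔhepA was 1.69 (95% interval 0.75 to 2.63, limma adjusted p = 0.255), with no overlap of the 2 groups. Without ΔlaeA replicate 1 both genes of this pair were called higher in ΔlaeA than in ΔhepA, in a fit that called 257 genes in all.

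The 9 genes from AKAW2_31302A to AKAW2_31310S showed no common change, and each overlapped the controls in both deletion strains. Their control means ran from 0.76 FPKM in AKAW2_31302A to 83.0 ± 24.6 FPKM in AKAW2_31308S (SD, n = 3). AKAW2_31308S, the most abundant of them, stood at 49.3, 50.3 and 90.9 FPKM in ΔhepA and at 111, 61.6 and 21.8 FPKM in ΔlaeA, where its order of libraries was the reverse of that in AKAW2_31317A. AKAW2_31310S stood at 7.33 to 12.5 FPKM in control libraries and at 28.1, 28.4 and 10.02 FPKM in ΔlaeA (difference 1.03, limma adjusted p = 0.216). AKAW2_31313A, beside FSL5 and divergent from it, was not tested, with 0 to 0.28 FPKM in the controls, 0.23 to 0.53 in ΔhepA and 0.72, 0.72 and 2.15 in ΔlaeA.

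On the other side, AKAW2_31320A was higher by a small amount in each ΔlaeA library. It stood at 9.26, 15.3 and 6.21 FPKM in the controls, at 10.7, 21.7 and 19.0 FPKM in ΔhepA and at 22.6, 18.9 and 27.9 FPKM in ΔlaeA (difference 1.16, limma adjusted p = 0.137). Its ΔlaeA libraries were close together (SD of 0.271 in log2), unlike those of the stretch before it. After it came AKAW2_31321A, AKAW2_31322A and AKAW2_31323A, which did not exceed 0.57 FPKM in any library and were not tested. With AKAW2_31313A they make up the 4 untested members.

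Beyond these near-silent genes lay the longest genes of the block, AKAW2_31324S (5765 bases) and AKAW2_31326A (7599 bases), both low throughout. AKAW2_31324S stood at 0.51 to 1.65 FPKM over the 9 libraries. AKAW2_31326A had 0.45 to 0.50 FPKM in the controls, 0.30, 1.16 and 0.69 FPKM in ΔhepA and 0.91, 1.16 and 1.14 FPKM in ΔlaeA (difference 0.49, limma adjusted p = 0.387). Its ΔlaeA libraries were above the controls at a level where few fragments are counted. AKAW2_31325A between them stood at 6.31 to 21.2 FPKM in control libraries and 4.58 to 23.7 FPKM in ΔlaeA.

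From AKAW2_31327A to the end of the block, some genes were lower in the libraries that lay apart and the rest were even. AKAW2_31327A stood at 21.5, 10.4 and 10.4 FPKM in the controls, at 12.9, 5.85 and 13.5 FPKM in ΔhepA and at 13.2, 4.51 and 3.65 FPKM in ΔlaeA (difference -1.0, limma adjusted p = 0.264). AKAW2_31328S, divergent from it, stood at 4.70, 2.21 and 3.59 FPKM in the controls, at 2.91, 0.96 and 1.32 FPKM in ΔhepA and at 2.64, 0.87 and 0.55 FPKM in ΔlaeA (-1.0, limma adjusted p = 0.220). Both genes, AKAW2_31330A and SYF1 had the 3 libraries that lay apart below the other 6, as did 21.9% of all tested genes. AKAW2_31330A stood at 21.2 to 27.8 FPKM in control libraries and 10.8 to 26.3 FPKM in ΔlaeA, and AKAW2_31329S at 4.17 to 7.96 FPKM in all 9 libraries.

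The block genes named after yeast housekeeping genes lay at its far end and changed little. GEA2 stood at 32.3, 22.1 and 24.4 FPKM in the controls, at 20.6, 18.2 and 22.7 FPKM in ΔhepA and at 28.3, 24.4 and 22.5 FPKM in ΔlaeA. SYF1 stood at 33.6, 27.3 and 27.1 FPKM in the controls, at 29.7, 16.5 and 25.4 FPKM in ΔhepA and at 28.5, 15.4 and 15.1 FPKM in ΔlaeA. VMA8, the most abundant gene of the block in the control, stood at 323, 180 and 224 FPKM in the controls, at 163, 218 and 220 FPKM in ΔhepA and at 231, 307 and 306 FPKM in ΔlaeA. None of the 3 was called in any comparison, and their differences from the control lay between -0.61 (SYF1 in ΔlaeA) and 0.25 (VMA8 in ΔlaeA). VMA8 did not overlap between ΔlaeA and ΔhepA (difference 0.49, limma adjusted p = 0.606). AKAW2_31334A, at 41.1 to 80.02 FPKM over the 9 libraries, and AKAW2_31335A, at 58.3 to 114 FPKM, overlapped in each comparison.

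**Figure D4:**
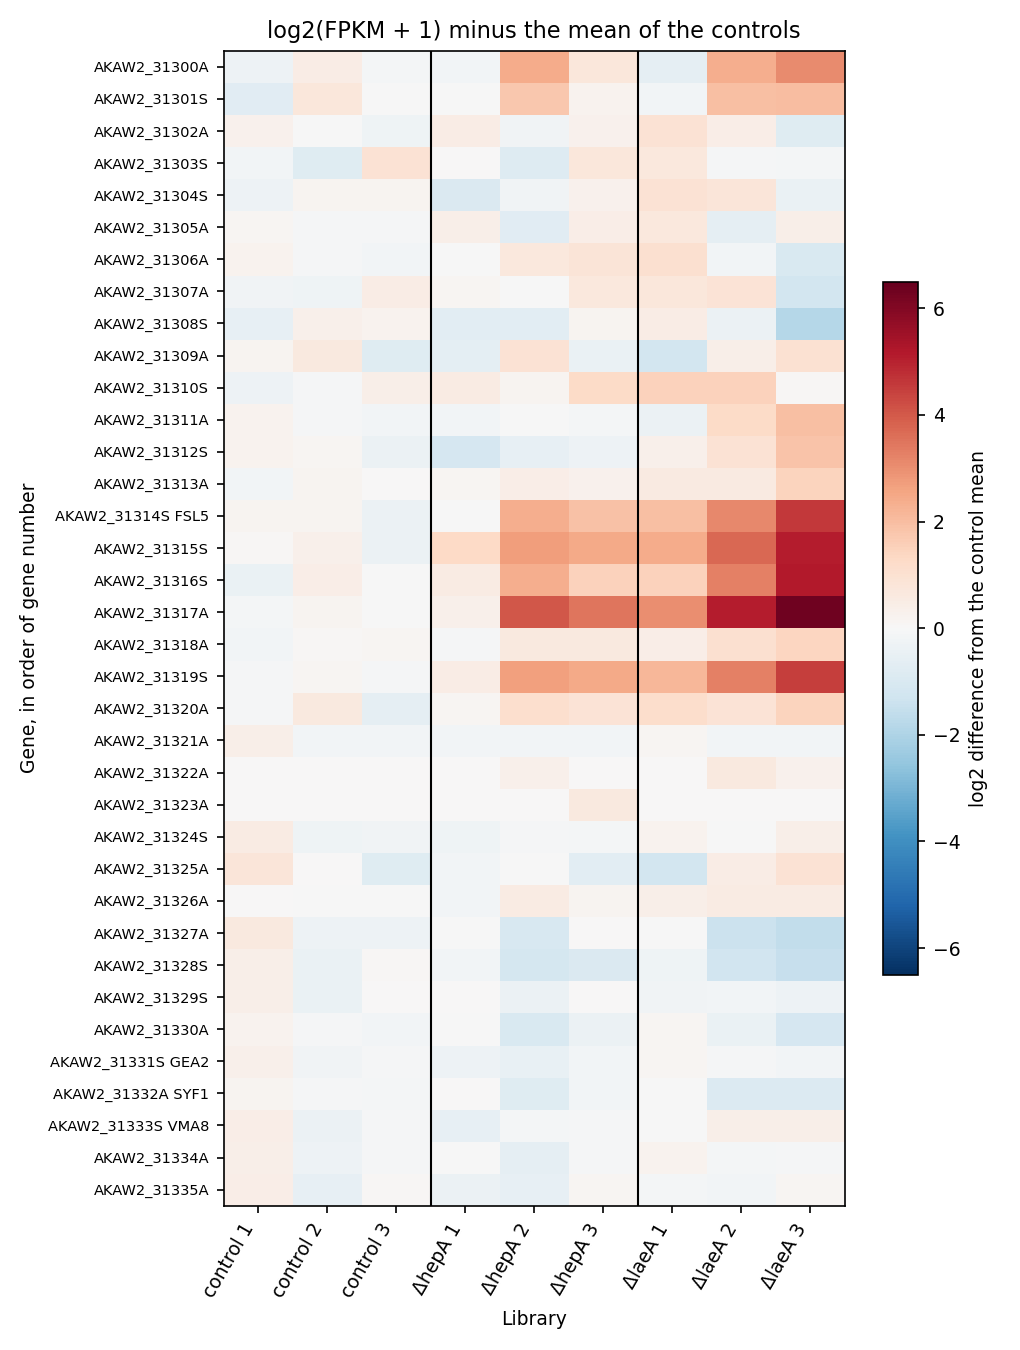
Difference of log2(FPKM + 1) from the mean of the 3 controls for each of the 36 block genes (rows, in order of gene number) in each of the 9 libraries (columns); red is higher and blue lower. The darkest cells are those of FSL5 to AKAW2_31319S in ΔlaeA replicate 3, with AKAW2_31318A pale between them, and that of AKAW2_31317A in ΔlaeA replicate 2. The second red patch is AKAW2_31300A with AKAW2_31301S in the libraries that lay apart.

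The genes just outside the numbering range were low or silent. AKAW2_31299S stood at 0 to 3.0 FPKM, and AKAW2_31336S was listed at 0 in all 9 libraries, while the members just inside it, AKAW2_31300A and AKAW2_31335A, are given above. In the 50 gene numbers before the block 47 genes were tested, and in the 50 after it 42. By limma 0 of these 89 flanking genes were called in any of the 3 comparisons, beside the shares of all genes given above. At an unadjusted p under 0.05 in ΔlaeA against control, 3 of the 47 were higher and 6 lower, and 1 of the 42 was higher and 6 lower, against 7.53% and 14.1% of all genes. Their median difference in ΔlaeA was -0.37 before and -0.31 after the block, below the -0.21 of all tested genes, and the 3 ΔlaeA libraries lay above the controls in 2 and 1 of them and below in 4 and 6, against 8.48% and 14.5% of all genes.

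Over the whole genome, 8 tested genes carried symbols of a list of cluster gene names from other fungi, the block member FSL5 among them. FUM1 is on the list because of its name only, which is also that of yeast fumarase. Of the 8, 0 were called in ΔlaeA by limma, against 0.17% higher and 0.919% lower of all genes. At an unadjusted p under 0.05, 2 were higher (FSL5, from the block itself, and PKS5) and 1 lower (gliI) in ΔlaeA, against 7.53% and 14.1%. In ΔhepA 1 was called higher, nscA, against 0.05% of all genes, and 2 were higher and 1 lower at an unadjusted p under 0.05, against 2.58% and 7.85%. nscA went from a mean of 2.79 FPKM in the control to 42.5 FPKM in ΔhepA and 1.77 FPKM in ΔlaeA. PKS5, named after a polyketide synthase, had means of 4, 5.18 and 12.5 FPKM in the control, ΔhepA and ΔlaeA (difference in ΔlaeA 1.19, limma adjusted p = 0.212). nscC had means of 8.60, 165 and 6.52 FPKM in the control, ΔhepA and ΔlaeA, and gliI 5.25, 0.96 and 1.49 FPKM. By mean, FSL5, PKS5, nscR, FUM1 and gliI were higher in ΔlaeA than in ΔhepA, and nscA, nscC and fmaE were lower. The difference between the strains was -3.93 for nscA (limma adjusted p = 0.0594).

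Genes outside the block whose levels followed the mean profile of the 3 called genes most closely were found on chromosomes 4, 5 and 7. The highest Pearson's r over the 9 libraries was 0.974, for atm1 (AKAW2_51853A), named after the yeast mitochondrial transporter that serves iron-sulphur protein assembly. atm1 stood at 147, 158 and 149 FPKM in the controls, at 196, 233 and 262 FPKM in ΔhepA and at 220, 337 and 433 FPKM in ΔlaeA, a far narrower range than that of the block genes. AKAW2_40371S (r = 0.973) stood at 2.07 to 3.29 FPKM in control libraries and 8.29, 20.8 and 42.0 FPKM in ΔlaeA. AKAW2_50187A (r = 0.958) stood at 1.63 to 4.04 FPKM in control libraries and 12.5, 70.3 and 171 FPKM in ΔlaeA. The other two were AKAW2_70660A (r = 0.971) and AKAW2_51708A (r = 0.963). None of the 5 was called in ΔlaeA (limma adjusted p = 0.0557 to 0.0816), and 62 genes outside the block had r of at least 0.9, so this library pattern was not particular to the block.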

How the data were processed

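Per the labels' protocols, stranded libraries were made from poly(A) RNA. The deposited table holds FPKM values per gene, with a column for each library, and its name credits RSEM. Among other tools, the submitters' processing notes list STAR 2.7.9a, featureCounts 2.0.1 and RSEM 1.3.1, without their roles. The sources used here do not give the genome build. FPKM is scaled by each library's own total (sums of 1368965 to 1716065 here), so abundant transcripts lower other values, and read totals were not used here. Gene lengths in the deposited table, in bases, equal the genomic span. No library was a copy of another (equal values above 0 in 1.65% of genes or fewer).

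The test covered the 10009 genes that reached 1 FPKM in 3 or more libraries. log2(FPKM + 1) was fitted with limma 3.58.1 in R 4.3.3 by group means over 9 libraries (6 residual degrees of freedom), with eBayes and a mean trend. Tests were two-sided, with Benjamini-Hochberg adjustment over all tested genes and a threshold of 0.05. This scale understates changes of low genes. The fit was tried on simulated data of 10009 genes for ΔlaeA against control, with 50 genes altered at each size. It recovered 10% of changes of 1, 78% of 2, 88% of 3 and 96% of 4 in log2. It also called 10 genes that had not been altered. Only genes above a low mean level were altered, with the same spread in all groups, so low genes were not tried. Changes of 1 or smaller are thus mostly not detectable in such genes. These rates cannot be carried over to the uneven genes of the block. FSL5 and AKAW2_31316S, with differences of 3.22 and 3.30, were not called. Their SD among the ΔlaeA libraries was 1.33 and 1.82, against a median of 0.477 over all tested genes. The members, lists and tests were chosen with earlier results of these data known. Values in every library are given for called members, those between the first and last called, and those with a symbol; further members were given so because of their values. Outside the block the 5 genes most like the called ones are named. Alternatives were pseudocounts of 0.1 and 5, other filters and scalings, a 2-group fit, no trend, a replicate block, each library left out and, added after seeing the data, 3 libraries left out. Promoter and protein sequences were not used here. Tables and figures were made in Python 3.11.15 with pandas 2.3.3 and matplotlib 3.10.9.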

Additional observations from a re-analysis of the deposited data

How the results depend on the processing

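In ΔlaeA against control, 3 block genes were called, of 109 genes in all. The count was 0 of 29 with no filter on low values (more genes tested), 1 of 142 with median-ratio scaling (AKAW2_31315S) and 5 of 174 with the replicate block. With each library left out it ran from 0 to 10, while the genes called in all ran from 21 to 1601. The other planned fits gave 2 or 3, of 49 to 211 genes in all. In ΔhepA against control the count of block genes was 0 in each fit run. Between ΔlaeA and ΔhepA it was 0 in the planned fits except without ΔlaeA replicate 1. There it was 2, of 257 genes in all (range 0 to 2 with each library left out). The replicate block added FSL5 and AKAW2_31316S to the calls in ΔlaeA against control. Correlations of deviations from the group mean ran from -0.22 to 0.423 in the 9 same-numbered pairs and were over 0.1 in 3. In the 18 differently numbered pairs they ran from -0.559 to 0.424 and were over 0.1 in 6. With 3 libraries per group, these values cannot tell whether same-numbered libraries shared a batch. Scaling moved the median difference of all genes in ΔlaeA from -0.21 to -0.03 (median-ratio), -0.01 (quantile) and -0.30 (TPM).

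Of 456 differences of single named genes under alternatives, 423 kept direction and side of the threshold, 22 lost the call, 4 gained it and 7 changed sign, all of genes that were not called. GEA2 in ΔlaeA went from -0.05 to 0.15 with median-ratio scaling, 0.22 with quantile normalization and 0.12 without the 3 libraries that lay apart, and ran from -0.16 to 0.10 with each library left out. Without those 3 libraries SYF1 between the deletion strains was at 0.049 and VMA8 in ΔlaeA at -0.026. The cause of these shifts, or of the calls lost with no filter, was not tested. With no filter the 3 called genes kept their differences in ΔlaeA and had a larger SE (0.714 against 0.621 for AKAW2_31315S). Depth limits most the values of genes near 1 FPKM in ΔlaeA replicates 2 and 3.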
